A study of Mus musculus with 35 samples.

Results

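The 33 genes described here encode the enzymes that make long-chain fatty acids from acetyl-CoA, lengthen them, introduce their double bonds and activate them for use in lipids. They were chosen by name and matched to the gene names of the count tables, which list 49568 genes. All 33 were found, and 31 had enough counts to be tested; Scd4 and Elovl3 did not. The study sequenced polyA RNA in 35 libraries from dissected hypothalamus of male mice of strain B6/J, all taken at Zeitgeber time 16 (hours after lights-on). Control mice had free access to food (fed, n = 10) or had been without food for 16 h (fasted, n = 10). Mice with the PER2-S662D form of the clock protein PER2, in which an aspartate replaces a serine that is a phosphorylation site, were fed (n = 5) or fasted (n = 5). A further 5 libraries from fasted mice were labelled Per2 knockout, and no fed group carried that label. Age, the construct behind either mutant and the origin of the controls of each mutant are not given in the sources used here.

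Cytosolic fatty acid synthesis starts from citrate, which ATP citrate lyase cleaves to acetyl-CoA; acetyl-CoA carboxylase makes malonyl-CoA from it, and fatty acid synthase joins these units into palmitate. In the endoplasmic reticulum, palmitate and dietary fatty acids are lengthened by a cycle of ELOVL enzymes, a ketoacyl reductase, HACD dehydratases and the reductase TECR, and desaturated by SCD enzymes (monounsaturated products) and FADS enzymes (polyunsaturated products). In the brain these reactions supply membrane and myelin lipids, and in liver the same genes are well known to follow feeding through the transcription factor SREBP-1c, a product of Srebf1.

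Depth ran from 17959586 to 37027342 assigned counts per library. Per2 itself did not fall in the group labelled Per2 knockout relative to fasted controls (log2 fold change 0.06, SE 0.07, adjusted p 0.935 by edgeR's quasi-likelihood F test, Benjamini-Hochberg adjusted over all 18063 genes tested), so that group is called by its label throughout. Per2 RNA was lower in S662D than in control mice (log2 -0.59 fed, adjusted p 1.2e-07, and -0.55 fasted, adjusted p 6.8e-07, same test) and higher in the labelled knockout than in fasted S662D mice (0.61, adjusted p 8.5e-07). The hypothalamus markers Hcrt, Pmch, Avp, Oxt, Agrp, Sim1, Nkx2-1 and Otp were present in every group, with a summed level of 480 to 707 CPM (counts per 1000000 counts after scaling between libraries). Library numbers in the file headers form separate ranges for control replicates 1 to 5, the labelled knockout, control replicates 6 to 10 and the S662D mice, so these ranges and genotype cannot be told apart. In the S662D groups, replicates 2, 3 and 4 of each feeding state (6 of 10 libraries) have a number with 1 more digit at its end, called the additional digit here; its meaning is not stated. The 3 fasted libraries with the digit stood apart from all others on the third principal component of log2 CPM (scores 18.3 to 33.3, against -22.9 to 10.99). On the first component the 3 fed ones stood apart (-27.7 to -20.8, against -13.3 to 24.7). Without the digit libraries 2 S662D libraries remain per feeding state. Where the call of a lipid gene named below was lost in 1 of these sets of libraries, this is stated. Calls of single cell type markers are not given by set. The labels name separate samples and do not say that each is a separate mouse, so p-values measure the spread between these samples.

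In fed controls the desaturases Scd2, Fads2, Scd1 and Fads1 and the elongation enzymes Tecr and Hacd3 were the most abundant members per kilobase of counted exon, while the carboxylase Acacb lay above only 24.5% of the genes tested and Acaca above 60.8%. Scd2, the main stearoyl-CoA desaturase of brain, was the highest at 417 ± 13.0 CPM per kilobase (SD, n = 10). Its level exceeded that of 99.7% of the genes tested. Scd1, its paralog that dominates in liver, was at 79.7 ± 2.60 CPM per kilobase, a ratio of Scd2 to Scd1 of 5.24 ± 0.164 within libraries. Scd3 was at 2.22 ± 0.17 CPM per kilobase, and Scd4 at 0.03, with 79 counts in all 35 libraries together. The SCD genes are paralogs, yet at most 6.57% of the 50-base words of any of them occurred in another gene.

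**Figure D1:**
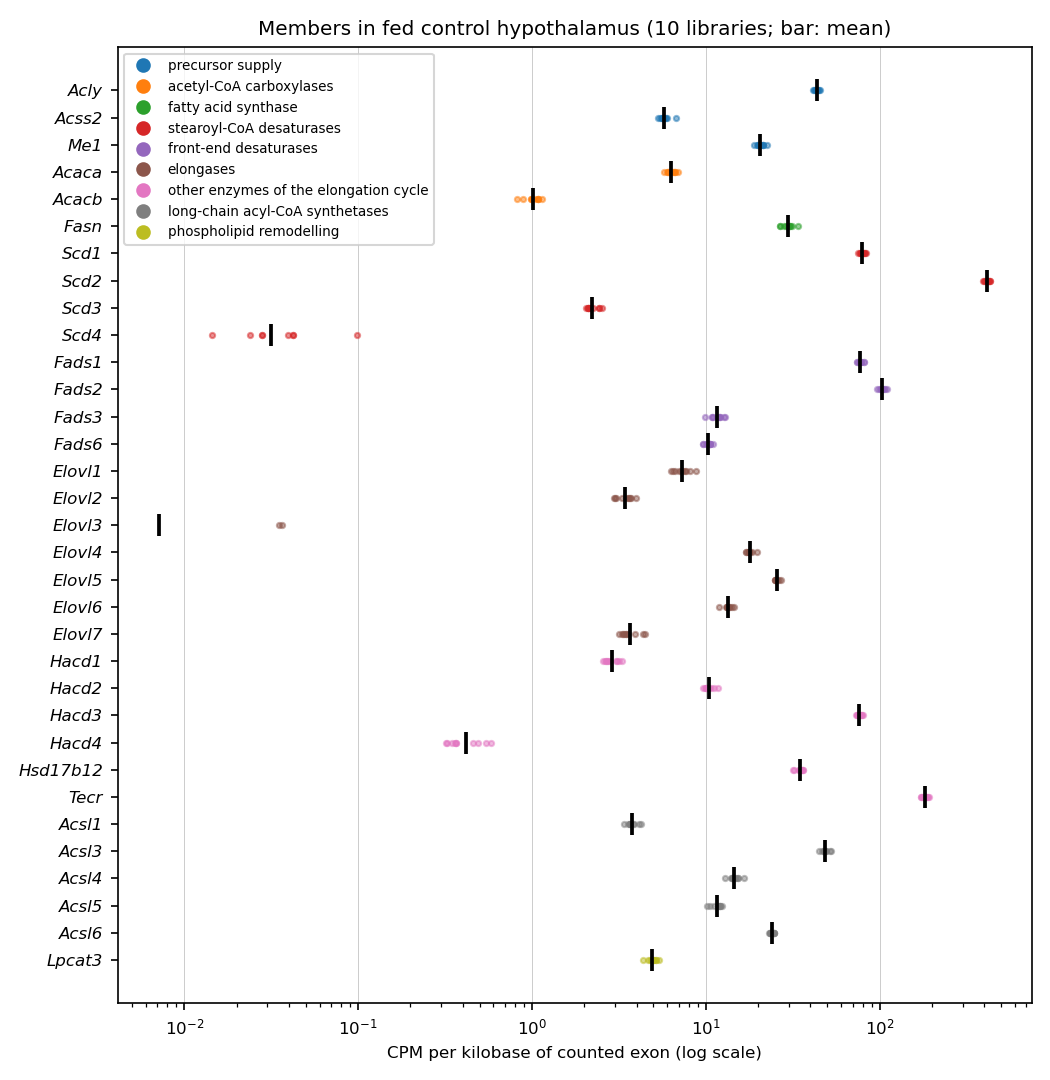
Level of each of the 33 genes in the 10 fed control libraries, in CPM per kilobase of counted exon on a log scale, coloured by role. Points are libraries (libraries with a count of 0 cannot be drawn on this axis), bars are means, and Scd2 lies farthest to the right while Scd4 and Elovl3 lie farthest to the left.

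Of the other enzymes of the elongation cycle, Tecr, which reduces the trans double bond in the last step, stood at 182 ± 7.19 CPM per kilobase, above 99.0% of the genes tested. Hacd3, a 3-hydroxyacyl-CoA dehydratase, reached 76.5 ± 2.39 and Hsd17b12, the ketoacyl reductase, 34.6 ± 1.52 CPM per kilobase. The remaining dehydratases were lower, with Hacd2 at 10.4, Hacd1 at 2.87 and Hacd4 at 0.416 CPM per kilobase. Among the ELOVL enzymes, which choose the chain to be lengthened, Elovl5 (polyunsaturated chains) was at 25.6, Elovl4 (very long chains) at 17.9 and Elovl6 (saturated and monounsaturated chains) at 13.4 CPM per kilobase. Elovl1, Elovl7 and Elovl2 followed at 7.33, 3.65 and 3.43 CPM per kilobase. Elovl3, known from skin and brown fat, had 15 counts in all, spread over 9 of the 35 libraries.

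The front-end desaturases of polyunsaturated fatty acid synthesis were both abundant, with Fads2 at 103 ± 4.10 and Fads1 at 77.5 ± 2.33 CPM per kilobase. The annotation used for counting gave Fads2 1508 exon bases, 45.8% of its length in the GENCODE M21 annotation, and Fads1 71.8%, so the order of these genes per kilobase depends on the annotation. The counted length also differed for Acsl5 (64.8%), Elovl3 (75.6%), Fads3 (86.2%) and Elovl7 (135%), and their places per kilobase depend on it too. Fads3 and Fads6, family members with less settled substrates, were at 11.6 and 10.3 CPM per kilobase. For de novo synthesis, Acly was at 43.5 ± 1.23, Fasn at 29.7 ± 2.22, the NADPH source Me1 at 20.6 ± 1.03 and Acss2, which makes acetyl-CoA from acetate, at 5.77 ± 0.40 CPM per kilobase. The cytosolic carboxylase Acaca was at 6.35 ± 0.37 and Acacb, the form at the outer mitochondrial membrane, at 1.01 ± 0.10 CPM per kilobase. Among the long-chain acyl-CoA synthetases, which activate fatty acids, Acsl3 was at 48.7, Acsl6 at 24.0, Acsl4 at 14.6, Acsl5 at 11.6 and Acsl1 at 3.77 CPM per kilobase. Lpcat3, which places polyunsaturated chains into phospholipids, was at 4.93 ± 0.30 CPM per kilobase.

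The levels of Me1, Acaca, Hacd1, Hacd4 and Lpcat3 are uncertain. At least 10% of their exon bases overlap another gene (Hacd4 with Focad, Lpcat3 with Emg1), or at least 10% of their 50-base words occur in another gene (Me1 with Gm7049, Acaca with Gm5182, Hacd1 with Gm11451), and every alignment of a multi-mapping read was counted. None of the 7 members called below is among them. Spread between fed control libraries was small for the abundant members, with a coefficient of variation of 3.13% for Scd2, 3.95% for Tecr and 2.65% for Acsl6, and wider for Elovl7 (12.5%) and Hacd4 (23.0%).

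Promoter sequence was available from RefSeq (GRCm38.p6) for 29 of the 33 genes; Fads1, Scd1, Scd2 and Elovl3 had no entry. Windows of 250 bases before to 50 after the start were searched on both strands for 7 motifs. The CCAAT box (CCAAT) was found in 17 of 29 members (58.6%) and in 41.1% of all genes with a window. The E-box CACGTG, bound by the clock activators CLOCK and BMAL1, was found in 3 members (Elovl4, Elovl5 and Hacd3; 10.3% against 8.09% of all genes). The RORE core (TAGGTCA or TGGGTCA), read by ROR and REV-ERB receptors, was found in 3 (Acsl3, Fads6 and Me1; 10.3% against 7.35%). The sterol regulatory element TCACNCCAC occurred in Acsl1 (1.44% of all genes), the glucocorticoid response element in Scd3 (0.537% of all genes), the CRE TGACGTCA in Elovl5 (2.03% of all genes) and the D-box (TTATGTAA or TTACGTAA) in no member (1.23% of all genes).

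The 250 bases before the start are printed for 4 genes whose RNA differed between groups below, 5′ to 3′ on the gene's strand, with motif matches in capitals. Fasn has 3 CCAAT matches, of which 2 overlap in the palindrome CCAATTGG; Tecr has 3, all on the reverse strand; Fads6 has 1 RORE core; Fads2 has no match. The RefSeq starts of Tecr and Fads6 lie inside the genes as counted, so the printed bases of Tecr and part of those of Fads6 do too.
Fasn (chr11:120824548-120824797, minus strand): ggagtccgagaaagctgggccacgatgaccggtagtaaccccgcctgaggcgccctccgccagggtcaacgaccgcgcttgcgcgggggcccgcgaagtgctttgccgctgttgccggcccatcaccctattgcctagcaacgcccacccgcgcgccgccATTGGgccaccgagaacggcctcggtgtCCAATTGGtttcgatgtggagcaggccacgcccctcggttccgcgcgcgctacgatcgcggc
Tecr (chr8:83594492-83594741, minus strand): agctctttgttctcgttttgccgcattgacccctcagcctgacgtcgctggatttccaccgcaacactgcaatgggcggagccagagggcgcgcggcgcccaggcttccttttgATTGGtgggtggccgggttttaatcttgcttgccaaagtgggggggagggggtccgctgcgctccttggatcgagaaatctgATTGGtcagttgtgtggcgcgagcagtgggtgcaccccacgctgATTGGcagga
Fads6 (chr11:115297563-115297812, minus strand): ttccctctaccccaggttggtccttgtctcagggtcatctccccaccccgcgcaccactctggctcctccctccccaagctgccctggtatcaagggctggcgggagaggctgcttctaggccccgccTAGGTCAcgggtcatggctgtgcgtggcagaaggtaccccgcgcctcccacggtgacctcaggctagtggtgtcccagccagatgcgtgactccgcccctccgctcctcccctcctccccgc
Fads2 (chr19:10101504-10101753, minus strand): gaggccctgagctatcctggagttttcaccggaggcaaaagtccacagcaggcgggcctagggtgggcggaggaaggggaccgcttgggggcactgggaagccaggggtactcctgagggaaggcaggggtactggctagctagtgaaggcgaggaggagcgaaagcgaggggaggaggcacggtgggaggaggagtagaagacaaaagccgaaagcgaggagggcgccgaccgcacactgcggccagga

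Fasting changed few of these genes in control hypothalamus. Acacb and Hacd2 rose and Fads2 fell, while Fasn, Acaca, Acly, Scd1, Scd2 and every elongase missed the threshold of an adjusted p of 0.05. That is 3 of the 31 members tested, against 3.88% of all genes tested in this comparison (2.2% higher and 1.68% lower). The median log2 fold change (fasted minus fed) was -0.02 over the members and 0.00 over all genes, and the members lay between -0.21 (Elovl7) and 0.40 (Acacb).

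Acacb (chromosome 5, 114146535 to 114250761, plus strand, GRCm38) makes the malonyl-CoA that restrains entry of fatty acids into mitochondria. In fed controls its lowest, median and highest values were 7.92, 9.88 and 10.98 CPM, and in fasted controls 10.8, 12.9 and 16.0 CPM. All 10 fasted libraries lay above the fed mean and 8 above every fed library. The fold change was 1.32 (log2 0.40, SE 0.08, adjusted p 0.00065 in edgeR quasi-likelihood with Benjamini-Hochberg adjustment). It was 0.46 on the log2 scale within control replicates 1 to 5 and 0.33, with an adjusted p of 0.118, within replicates 6 to 10. The ratio of Acaca to Acacb per kilobase was 6.34 ± 0.88 in fed and 4.86 ± 0.39 in fasted controls (SD, n = 10 each).

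Fads2 (chromosome 19, 10064164 to 10101503, minus strand) encodes the desaturase at the entry of polyunsaturated fatty acid synthesis. Fed controls spanned 145 to 167 CPM with a median of 155, and fasted controls 128 to 153 CPM with a median of 141. Every fasted library lay below the fed mean, and 7 of 10 lay below all fed libraries. The fold change was 0.897 (log2 -0.16, SE 0.04, adjusted p 0.00649, same test), with log2 values of -0.20 within replicates 1 to 5 and -0.12 (adjusted p 0.242) within replicates 6 to 10. Its partner Fads1, which acts after it, had a log2 value of -0.05, and the ratio of Fads2 to Fads1 per kilobase was 1.33 ± 0.08 in fed and 1.24 ± 0.05 in fasted controls.

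Hacd2 (chromosome 16, 35022421 to 35109175, plus strand), a dehydratase that acts in the elongation of very long chains, spanned 34.9 to 42.4 CPM in fed controls (median 36.8) and 37.0 to 48.7 CPM in fasted controls (median 41.1). The groups overlapped, with 9 of 10 fasted libraries above the fed mean. On the log2 scale the rise was 0.17 (SE 0.05, adjusted p 0.0279, edgeR's quasi-likelihood test). Within control replicates 1 to 5 the log2 value was 0.29, and within replicates 6 to 10 it was 0.05 (adjusted p 0.723). Leaving out 1 library ended the call for fed replicate 3, 4 or 6 (adjusted p 0.058, 0.0528 and 0.0564) and for fasted replicate 1, 3 or 5 (0.0733, 0.085 and 0.0653), and so did the oligodendrocyte markers as a term (log2 0.13, adjusted p 0.10).

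**Figure D2:**
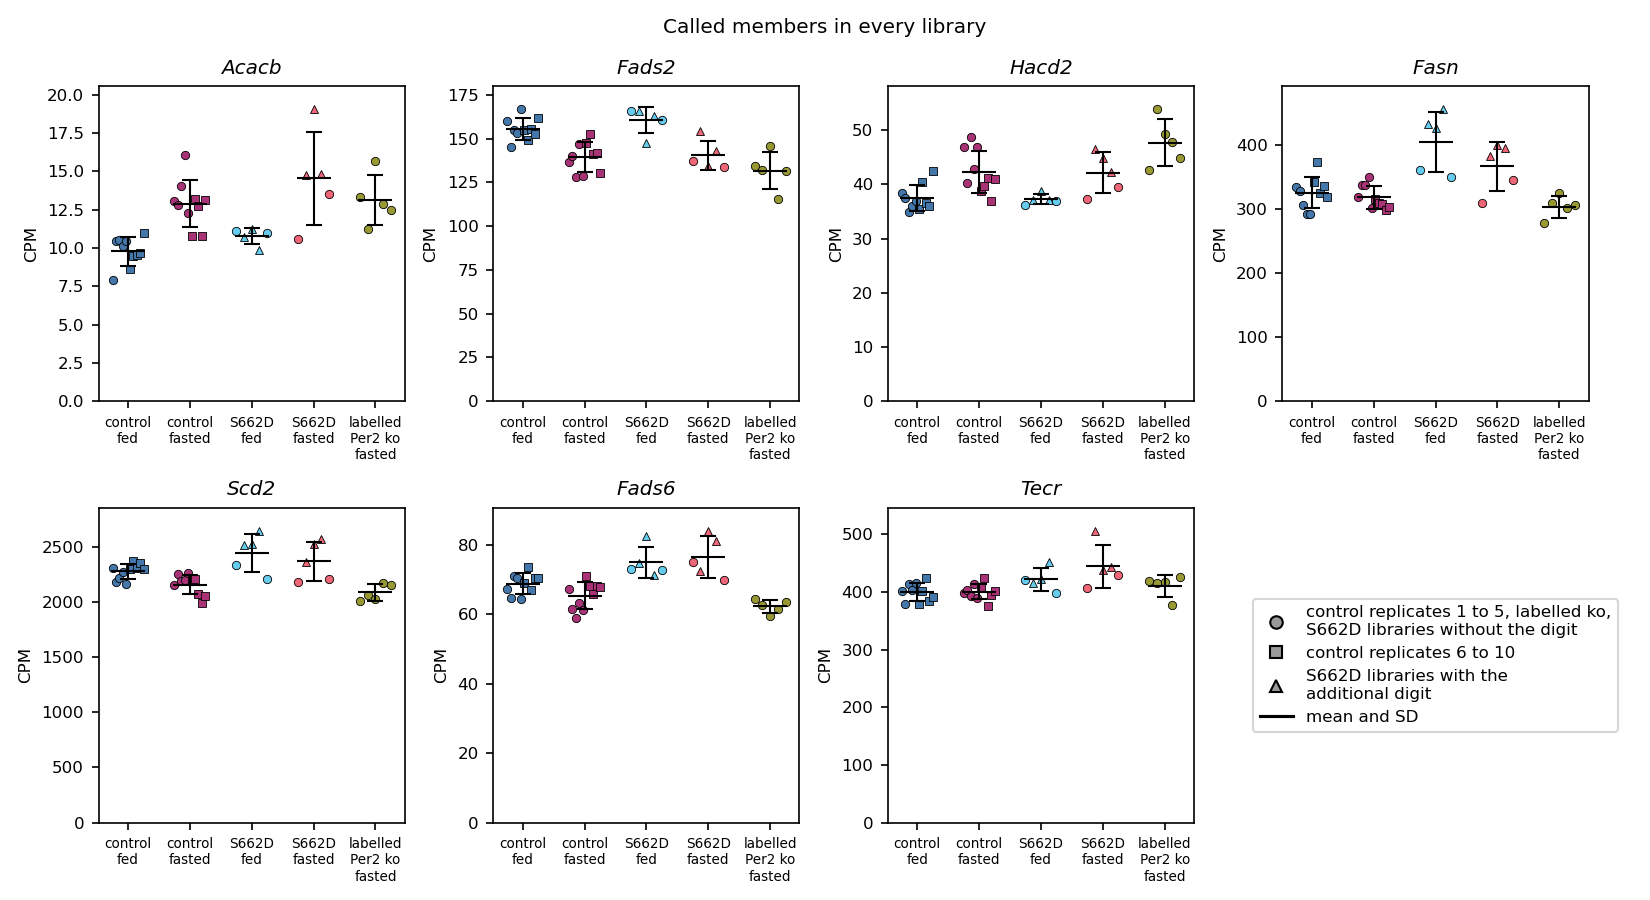
CPM in every library for the 7 members that passed the test in at least 1 comparison, by group, with the mean and SD. Squares are control replicates 6 to 10 and triangles the S662D libraries with the additional digit; Acacb is higher and Fads2 lower in fasted than in fed groups, and the highest Fasn, Scd2, Fads6 and Tecr values of the S662D groups are triangles.

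In S662D mice fasting moved Acacb and Fads2 in the same directions, 2 of 31 members against 2.64% of all genes tested (1.8% higher and 0.83% lower; 326 genes higher and 150 lower, but 262 higher and 328 lower without scaling between libraries). The members' median log2 fold change was -0.01 and that of all genes 0.00. Acacb in fed S662D libraries 1 to 5 was 11.1, 10.7, 11.2, 9.85 and 10.97 CPM, and in the fasted libraries 10.6, 14.8, 19.0, 14.8 and 13.5 CPM. All fasted S662D libraries except replicate 1 lay above every fed one. The rise was 0.43 on the log2 scale (SE 0.11, adjusted p 0.0131, edgeR quasi-likelihood with Benjamini-Hochberg adjustment). It was 0.61 (adjusted p 0.00134) among libraries with the additional digit and 0.13 (adjusted p 0.999) among the 2 fed and 2 fasted libraries without it. The call ended without fasted replicate 3 (log2 0.32, adjusted p 0.11) and without fed replicate 4 (log2 0.40, adjusted p 0.0547).

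Fads2 was 166, 166, 148, 163 and 161 CPM in fed S662D libraries and 137, 154, 134, 143 and 134 CPM in fasted ones. The groups overlapped only through fed replicate 3 and fasted replicate 2. On the log2 scale the change was -0.19 (SE 0.05, adjusted p 0.0325, same test). Without S662D fed replicate 1, 2, 4 or 5 the adjusted p was 0.0658, 0.102, 0.0778 and 0.0535, and without fasted replicate 1, 3 or 5 it was 0.0602, 0.0989 and 0.088, so leaving out any of these 7 libraries ended the call while the log2 value stayed between -0.19 and -0.18 without each of them. It was -0.27 (adjusted p 0.387) in libraries without the digit and -0.14 (adjusted p 0.261) in those with it. With only the S662D groups in the fit neither gene passed (adjusted p 0.0959 for Acacb and 0.119 for Fads2). Hacd2 did not pass in S662D mice, with a log2 value of 0.18 (SE 0.07, adjusted p 0.18).

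The difference between these 2 responses to fasting was tested as an interaction. It was called for 0 of 31 members and 0% of all genes by edgeR's quasi-likelihood test; 1 member (Elovl2, log2 0.24, SE 0.11) and 1151 genes had an unadjusted p below 0.05, and DESeq2 called 0 members and 0 genes. The members' median interaction was 0.02 and that of all genes 0.00. The interaction was 0.03 for Acacb (SE 0.13) and -0.04 for Fads2 (SE 0.06) on the log2 scale. With control replicates 1 to 5 alone, 1 member was called (Elovl1, log2 0.33, adjusted p 0.0496), where 2.73% of all genes tested were called.

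Other cell types' markers moved on fasting as well, where 2.2% of all genes rose and 1.68% fell in controls, and 1.8% rose and 0.83% fell in S662D mice. In controls, of 6 microglia markers Cx3cr1 (log2 -0.41) and P2ry12 (-0.34) fell, of 7 astrocyte markers Aqp4 fell (-0.33) and Aldh1l1 (0.20) and Agt (0.25) rose, and of 5 endothelial markers Cldn5 fell (-0.43). Of 5 oligodendrocyte precursor markers Neu4 (0.24) and Pdgfra (0.19) rose, and of 8 hypothalamus markers the peptide gene Agrp (0.61) rose. The oligodendrocyte list (10 markers) spanned 8064 to 10768 CPM in fed and 8941 to 9980 CPM in fasted controls as a sum, with Ermn lower and Mobp higher. In S662D mice Cx3cr1 fell (-0.43) and Mobp (0.40), Mal (0.33), Cldn11 (0.24), Neu4 (0.35), Ly6c1 (0.40), Aldh1l1 (0.19) and the neuronal Nefl (0.17) rose, and the oligodendrocyte sum was 8050 to 9554 CPM fed and 9689 to 10278 CPM fasted. With oligodendrocyte markers as a term, Acacb was at 0.38 (adjusted p 0.00163) and Fads2 at -0.14 (adjusted p 0.0141) in controls. The same term brought Scd2 past the threshold in controls (-0.10, adjusted p 0.0361) and Hacd2 (0.22, adjusted p 0.0278) and Acsl3 (0.22, adjusted p 0.00157) in S662D mice, where edgeR's quasi-likelihood test without it gave adjusted p of 0.18 for Hacd2 and 0.0905 for Acsl3. Of all genes tested, 4.17% in controls and 3.17% in S662D mice were called with this term, against 3.88% and 2.64% without it. The part of the other cell types in these results was not tested, and in bulk tissue fewer cells of a type and less RNA per cell cannot be told apart. The defining markers of fat cells were at or near 0 (summed level 0 to 0.415 CPM).

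**Figure D3:**
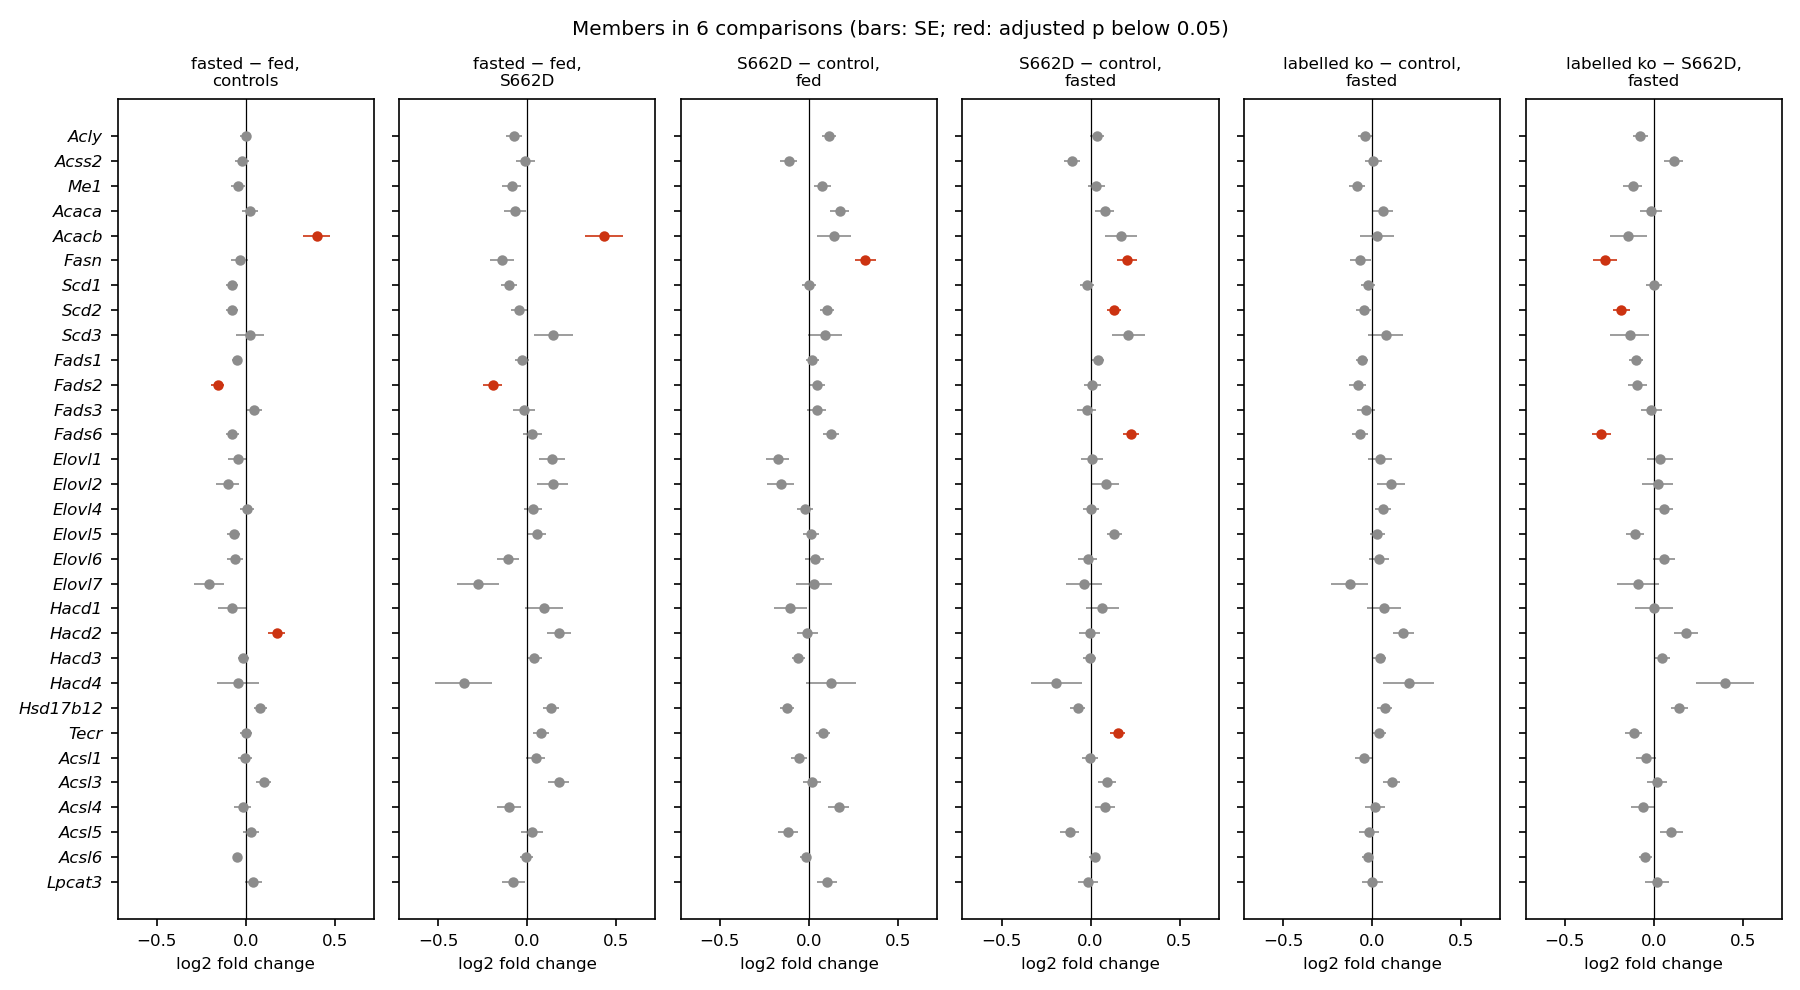
Log2 fold change with its SE for the 31 members tested in 6 comparisons, with called members in red. Most members lie within 0.2 of zero, Acacb stands to the right in both fasting panels, and Fasn, Scd2, Fads6 and Tecr stand to the right in S662D against fasted control.

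Fasn was higher in fed S662D mice than in fed controls, the only member called by edgeR's quasi-likelihood test. That is 1 of 31 members against 4.69% of all genes tested (3.12% higher and 1.57% lower). The members' median log2 fold change was 0.03 and that of all genes -0.01. Fasn (chromosome 11, 120805846 to 120824547, minus strand), the synthase that produces palmitate, spanned 293 to 374 CPM in fed controls with a median of 327. Fed S662D libraries 1 to 5 were at 360, 433, 427, 456 and 351 CPM. All 5 lay above the control mean, but only replicates 2, 3 and 4, which carry the additional digit, lay above every control. The 2 without it lay inside the control range. The 3 with it stood apart on the first principal component, whose part in the result was not tested. The fold change was 1.25 (log2 0.32, SE 0.06, adjusted p 0.00133, edgeR quasi-likelihood with Benjamini-Hochberg adjustment). It was 0.43 on the log2 scale with the digit libraries alone, 0.13 (adjusted p 1.00) with the others, and 0.14 (adjusted p 0.582) with the digit as a term. Against control replicates 1 to 5 alone it was 0.38 and against replicates 6 to 10 alone 0.26 (adjusted p 0.107).

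Members of the same route that missed the threshold in fed S662D mice were Acaca (log2 0.17, adjusted p 0.0501), Acly (0.11, 0.0742), Fads6 (0.12, 0.0996) and Scd2 (0.10, 0.116), all above zero, and Hsd17b12 (-0.12, 0.0727) and Elovl1 (-0.18, 0.103), below zero. Which of them passed depended on the setting. DESeq2 called 5 members (Fasn, Acaca, Acly and Acsl4 higher, Hsd17b12 lower) and 3.94% of all genes with a count. Without scaling between libraries 2 were called, Fasn higher and Hsd17b12 lower, and 4.58% of all genes tested. The count was 7 without S662D fed replicate 5 (8.85% of all genes tested) and 4 without S662D fed replicate 1 (9.15%). It was 3 without fed control replicate 7 (6.38%) or 9 (6.12%), and 2 without fed control replicate 6 (4.39%) or 8 (4%). With the digit libraries alone it was 8 of 31 members, where 16.9% of all genes tested were called, and with the others 0 of 31, where 0.0854% were called.

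In fasted mice 4 members were higher in S662D than in control: Fasn, the desaturases Scd2 and Fads6, and the elongation reductase Tecr. That is 4 of 31 members, against 5.57% of all genes tested (3.35% higher and 2.23% lower). The 3 fasted S662D libraries with the additional digit, which stood apart from the others, had mitochondrial shares of counts of 6.85 to 6.93%, against 8.27 and 7.70% in replicates 1 and 5 and 6.81 to 8.70% in fasted controls; its part in the result was not tested. The members' median log2 fold change was 0.02 and that of all genes 0.00. The split of all calls depended on the scaling, with 605 genes higher and 402 lower in the main scaling and 259 higher and 763 lower without scaling between libraries. Without scaling, and with only the fasted control and S662D groups in the fit, Fads6 alone of the 4 members passed.

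Fads6 (chromosome 11, 115279622 to 115297663, minus strand) spanned 58.8 to 71.0 CPM in fasted controls with a median of 66.4. Fasted S662D libraries 1 to 5 were at 75.0, 72.3, 83.9, 81.0 and 69.7 CPM, and all but replicate 5 lay above every control. The log2 fold change was 0.23 (SE 0.04, adjusted p 0.00284, edgeR quasi-likelihood with Benjamini-Hochberg adjustment), and no single library ended the call. It was 0.28 with the digit libraries, 0.15 (adjusted p 0.997) with the others, and 0.17 (adjusted p 0.422) with the digit as a term. Against control replicates 1 to 5 it was 0.30 and against replicates 6 to 10 it was 0.16 (adjusted p 0.105).

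Tecr (chromosome 8, 83571698 to 83607971, minus strand) spanned 376 to 425 CPM in fasted controls with a median of 400. Fasted S662D libraries were at 406, 506, 438, 443 and 429 CPM, and all but replicate 1 lay above every control. The log2 fold change was 0.15 (SE 0.04, adjusted p 0.019, same test). The call ended without S662D fasted replicate 2, the highest library (log2 0.10, adjusted p 0.177), and without replicate 4 (0.15, 0.0684). With the digit libraries the log2 value was 0.21, with the others 0.06 (adjusted p 0.997), and with the digit as a term 0.08 (adjusted p 0.701). It was 0.16 against control replicates 1 to 5 and 0.15 (adjusted p 0.134) against replicates 6 to 10.

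Fasn was at 299, 312 and 350 CPM (lowest, median and highest) in fasted controls. In fasted S662D libraries it was at 310, 383, 400, 395 and 345 CPM, and the 3 digit libraries (replicates 2, 3 and 4) lay above every control while replicates 1 and 5 did not. The log2 fold change was 0.21 (SE 0.06, adjusted p 0.0292, edgeR's quasi-likelihood test). Leaving out S662D fasted replicate 2, 3 or 4 ended the call (adjusted p 0.115, 0.134 and 0.144). With the digit libraries the log2 value was 0.30, with the others 0.05 (adjusted p 0.997), and with the digit as a term 0.03 (adjusted p 0.913). It passed against neither set of controls alone (0.16, adjusted p 0.147, for replicates 1 to 5 and 0.26, adjusted p 0.0756, for replicates 6 to 10).

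Scd2 (chromosome 19, 44293676 to 44306864, plus strand) spanned 1990 to 2258 CPM in fasted controls with a median of 2192. Fasted S662D libraries were at 2176, 2360, 2521, 2565 and 2204 CPM, and again the 3 digit libraries alone lay above every control. The log2 fold change was 0.13 (SE 0.04, adjusted p 0.0366, edgeR's quasi-likelihood test). The call ended without fasted control replicate 1, 8, 9 or 10 (adjusted p 0.0524, 0.0551, 0.0549 and 0.0573) and without S662D fasted replicate 2, 3 or 4 (0.0945, 0.162 and 0.211). The log2 value was 0.20 with the digit libraries, 0.03 (adjusted p 0.997) with the others and 0.03 (adjusted p 0.888) with the digit as a term. It was 0.10 (adjusted p 0.184) against control replicates 1 to 5 and 0.17 (adjusted p 0.0942) against replicates 6 to 10. Scd1 was not called, with a log2 value of -0.02 (SE 0.04), and the ratio of Scd2 to Scd1 per kilobase was 5.85 ± 0.555 in fasted S662D mice (n = 5) and 5.24 ± 0.174 in fasted controls (n = 10).

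**Figure D4:**
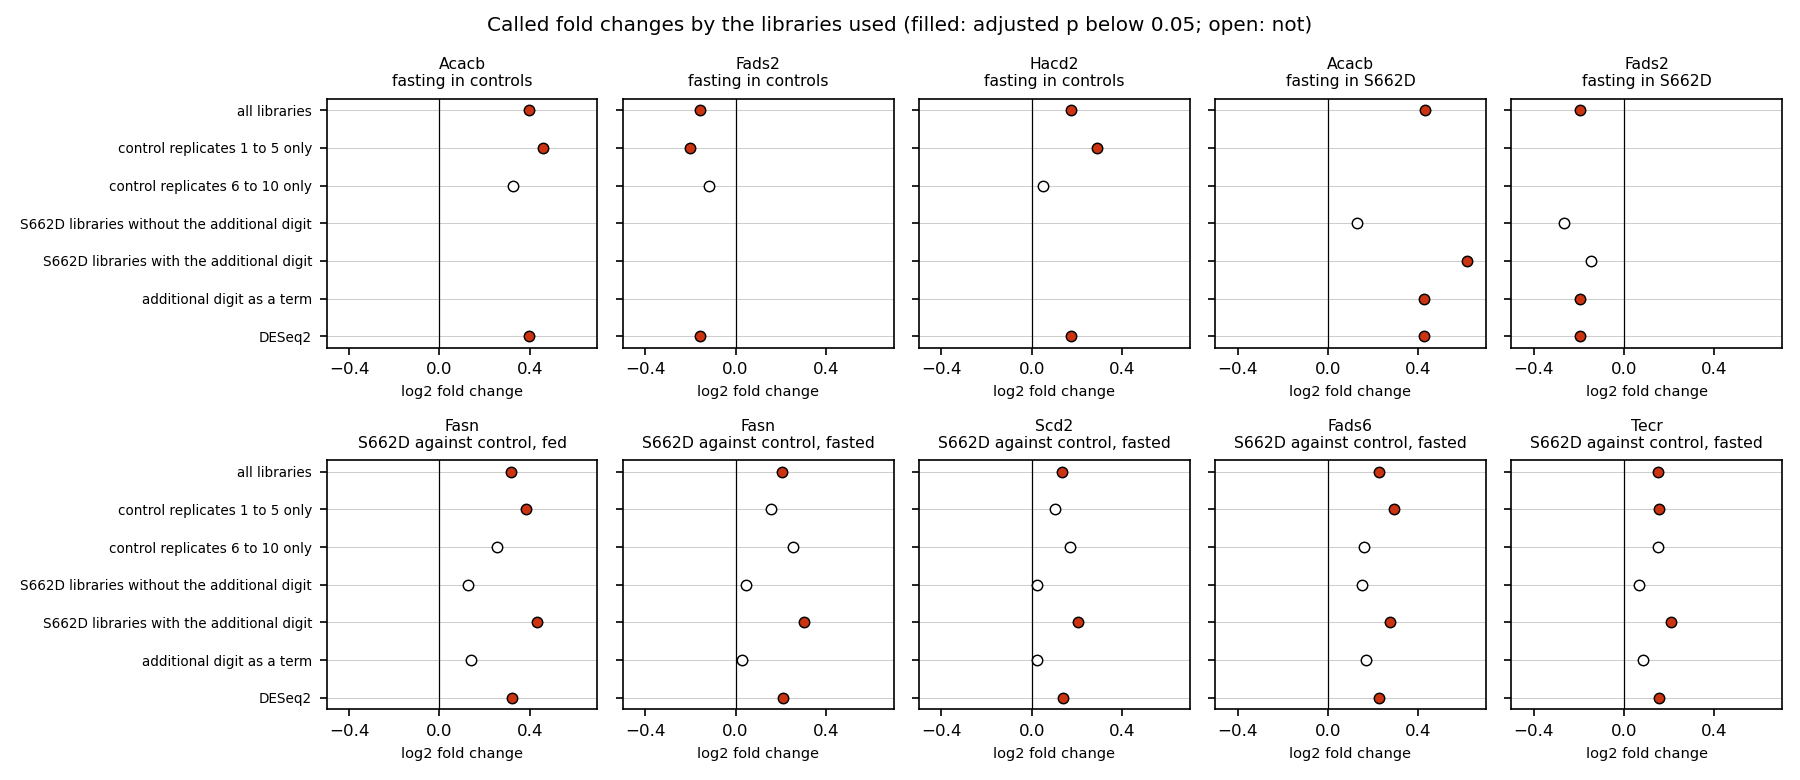
Log2 fold change of 10 called results when the libraries used, a digit term or the tool are changed; filled points passed the threshold and open points did not. For Fasn, Scd2, Fads6 and Tecr in S662D against control, values with the digit libraries lie farther from zero than values without them.

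Precursor and endothelial markers moved with the same contrast. Of 5 oligodendrocyte precursor markers 3 were higher in S662D than in control in each feeding state, against 3.12% (fed) and 3.35% (fasted) of all genes. Among them were Gpr17 (log2 0.38 fed and 0.35 fasted) and Cspg4 (0.40 and 0.38). The summed level of the 5 markers was 178 to 206 CPM in fed S662D and 164 to 212 CPM in fasted S662D mice, against 150 to 162 and 143 to 178 CPM in fed and fasted controls. Within the S662D mice it was 184 to 212 CPM in the digit libraries and 164 to 184 CPM in the others. Of 5 endothelial markers Cldn5, Flt1 and Pecam1 were higher in fasted S662D mice (log2 0.46, 0.37 and 0.28), where 3.35% of all genes were higher. The summed level of the 5 was 175 to 230 CPM against 168 to 193 CPM in fasted controls. Within the S662D mice of both feeding states it was 199 to 230 CPM in the digit libraries and 175 to 196 CPM in the others. In fed S662D mice Cldn5 (0.31) and Flt1 (0.28) were higher and Ly6c1 lower (-0.38), where 3.12% of all genes were higher and 1.57% lower. Oligodendrocyte markers were not called in fasted S662D against control, and Mobp was lower in fed S662D mice (log2 -0.21). With oligodendrocyte markers as a term the 4 members stayed called in fasted mice, and Elovl5 (0.14, adjusted p 0.0266) and Acsl3 (0.12, adjusted p 0.0476) passed as well. Calls rose across all genes too, to 8.8% of those tested with this term from 5.57% without it. The part of the precursor and endothelial cells in the result was not tested.

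No member was called between the libraries labelled Per2 knockout and fasted controls. The test called 0 of 31, against 0.0277% of all genes tested (0.00554% higher and 0.0221% lower, 5 genes in all). An unadjusted p below 0.05 was found for 2 members and for 1097 of all genes tested, and DESeq2 called 0 members. The members' median log2 fold change was 0.02 and that of all genes 0.00. The lowest adjusted p belonged to Hacd2, at 42.7, 53.9, 49.3, 47.7 and 44.9 CPM in the 5 libraries against 37.0 to 48.7 CPM in fasted controls. Its log2 value was 0.17 (SE 0.06, adjusted p 0.675, edgeR's quasi-likelihood test). Acsl3, a synthetase of the endoplasmic reticulum and lipid droplets, was at 232, 259, 228, 260 and 246 CPM (log2 0.11, SE 0.05, adjusted p 0.817). Against control replicates 6 to 10 alone both passed, Hacd2 at 0.27 (adjusted p 0.0386) and Acsl3 at 0.21 (adjusted p 0.0353), while against replicates 1 to 5 neither did. Of all genes tested 0.556% and 0.0113% were called in these 2 fits.

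Set against fasted S662D mice, the libraries labelled Per2 knockout had lower Fads6, Fasn and Scd2. That is 3 of 31 members, against 7.34% of all genes tested (2.61% higher and 4.72% lower; 472 genes higher and 853 lower, but 636 and 633 without scaling between libraries), and it shares its S662D libraries with the comparison above. The members' median log2 fold change was -0.02 and that of all genes 0.01. Fads6 was at 64.3, 62.7, 59.5, 61.3 and 63.3 CPM in the labelled knockout, all below the lowest fasted S662D library (69.7 CPM). The difference was -0.29 on the log2 scale (SE 0.05, adjusted p 0.00059, edgeR quasi-likelihood with Benjamini-Hochberg adjustment). Scd2 was at 2011, 2058, 2027, 2171 and 2154 CPM, also without overlap (log2 -0.18, SE 0.05, adjusted p 0.0113). Fasn was at 278, 309, 324, 301 and 306 CPM, and all but replicate 3 lay below the lowest S662D library (log2 -0.27, SE 0.07, adjusted p 0.0106).

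Without the digit libraries the log2 values were -0.22 for Fads6 (adjusted p 0.136), -0.07 for Scd2 (0.643) and -0.11 for Fasn (0.633), and with the digit as a term they were -0.24, -0.07 and -0.10, none of which passed. The Scd2 call also ended without S662D fasted replicate 4 (log2 -0.15, adjusted p 0.0629) and with only these groups in the fit (0.0915). Tecr, called in S662D against control, was at 418, 415, 417, 377 and 426 CPM in the labelled knockout (log2 -0.11, SE 0.05, adjusted p 0.126 against S662D). The 5 members called by DESeq2 here, where it called 4.79% of all genes with a count, were Fads6, Fasn, Scd2 and Fads1, all lower, and Hsd17b12, higher. Without scaling between libraries 5 were called as well, against 7.03% of all genes tested. They were Fads6, Fasn and Scd2, lower, and Hacd2 and Hsd17b12, higher. Of 5 endothelial markers Cldn5, Flt1 and Pecam1 were lower in the labelled knockout than in S662D (log2 -0.53, -0.44 and -0.33). Of 5 precursor markers Cspg4 was lower (-0.44), where 4.72% of all genes were lower. Of 8 hypothalamus markers the neuropeptide genes Hcrt (0.45, adjusted p 0.0158) and Pmch (0.46, adjusted p 0.0405) were higher, where 2.61% of all genes were higher. These marker calls are not given here by the additional digit. The part of these cells was not tested.

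Among regulators of lipogenic genes (20 listed, all tested), Srebf1, whose product drives fatty acid synthesis genes, fell on fasting in both genotypes. It averaged 109.5 ± 4.23 CPM in fed and 97.9 ± 8.36 CPM in fasted controls (log2 -0.16, SE 0.04, adjusted p 0.00579, edgeR's quasi-likelihood test; -0.11, adjusted p 0.273, within control replicates 6 to 10). In S662D mice it averaged 119 ± 5.03 CPM fed and 101 ± 3.71 CPM fasted (log2 -0.23, adjusted p 0.00626; -0.21, adjusted p 0.856, without the digit libraries). Mid1ip1, whose product promotes polymerisation of acetyl-CoA carboxylase, also fell in controls (log2 -0.29, adjusted p 0.0213), but its counts are uncertain because 25.5% of its exon bases overlap Gm14493, and it was not called without fasted control replicate 3 (adjusted p 0.0507) or within control replicates 6 to 10 (log2 -0.04). Thus 2 of 20 regulators fell and 0 rose in controls, and 1 fell and 0 rose in S662D mice. Over all genes tested 1.68% fell and 2.2% rose in controls, and 0.83% fell and 1.8% rose in S662D mice. The list's median log2 fold change was -0.02 in controls and -0.01 in S662D mice.

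Between genotypes, Srebf2, the regulator of sterol synthesis, was higher in fed S662D mice than in fed controls (log2 0.17, adjusted p 0.0257), 1 of 20 regulators against 3.12% of all genes higher. Ppard, a nuclear receptor for fatty acids, was higher in fasted S662D mice (34.0 ± 3.51 against 26.2 ± 2.03 CPM; log2 0.37, adjusted p 0.00151), again 1 of 20, against 3.35% of all genes higher. In the libraries labelled Per2 knockout against S662D, 4 of 20 were lower, against 4.72% of all genes, with Ppard (-0.51, adjusted p 0.00012), Srebf2 (-0.22) and Srebf1 (-0.20) the clearest. None of the genotype calls of Srebf2, Ppard and Srebf1 passed without the digit libraries or with the digit as a term. The S662D against control calls of Srebf2 (fed) and Ppard (fasted) were also lost against control replicates 6 to 10 alone. Without those libraries the log2 value was 0.04 for Srebf2 in fed S662D mice and 0.22 for Ppard in fasted ones, and in the labelled knockout against S662D it was -0.35 for Ppard, -0.08 for Srebf2 and -0.18 for Srebf1. The Srebf2 call in fed mice also ended without fed control replicate 4 (adjusted p 0.0501) or S662D fed replicate 2, 3 or 4 (0.12, 0.0936 and 0.206). In the labelled knockout the Srebf2 call ended without S662D fasted replicate 4 (0.0574) and the Srebf1 call without S662D fasted replicate 2 (0.0684) or knockout replicate 1 (0.0623).

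Of the ceramide and myelin sphingolipid genes (12 listed), 2 fell on fasting in controls and 0 rose, where 1.68% of all genes fell and 2.2% rose. Ugt8a, which makes the galactosylceramide of myelin, averaged 74.9 ± 5.34 CPM in fed and 52.0 ± 7.59 CPM in fasted controls (log2 -0.52, SE 0.07, adjusted p 1.25e-06, edgeR's quasi-likelihood test). It fell by 0.51 on the log2 scale in S662D mice too (adjusted p 0.000531), from 76.5 ± 4.52 to 53.6 ± 8.61 CPM. Its call held in all 28 alternatives in controls, and in S662D mice it was lost only with the libraries without the digit (log2 -0.40, adjusted p 0.702). Fa2h, which hydroxylates the fatty acids of these lipids, fell in controls (58.4 ± 3.86 to 47.1 ± 4.90 CPM; log2 -0.31, adjusted p 0.000202), a call lost within control replicates 6 to 10 (adjusted p 0.178). The list's median log2 fold change was 0.03 in controls.

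In fasted S662D mice against controls, Cers4 was lower (log2 -0.23, adjusted p 0.0177) and Cers1, the ceramide synthase of neurons, higher (0.20, adjusted p 0.0103), 2 of 12, where 5.57% of all genes were called. The exons of Cers1 overlap Gdf1, and its counts are uncertain. The Cers4 call ended without S662D fasted replicate 2, 3 or 4 (adjusted p 0.111, 0.0942 and 0.101) and the Cers1 call without replicate 2 or 4 (0.0707 and 0.0648). Of the phospholipid acylation genes (19 listed, 18 tested) 4 were higher, against 3.35% of all genes, led by Agpat3 (0.16), which adds an acyl chain to lysophosphatidic acid, with Agpat1 (0.18) and Lpcat4 (0.19). Without scaling between libraries none of these 3 passed. The Agpat3 call ended without S662D fasted replicate 2, 3 or 4 (0.102, 0.102 and 0.12), and the calls of Agpat1 and Lpcat4 each ended on leaving out any 1 of 10 libraries.

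On fasting in controls 1 of 18 acylation genes fell, against 1.68% of all genes, Mboat1 (log2 -0.44, adjusted p 0.00728; 0.207 within control replicates 6 to 10). Of the other acyl-CoA synthetases and thioesterases (10 listed), the fatty acid transporter Slc27a1 rose (0.17, adjusted p 0.00936; 0.302 within control replicates 1 to 5), against 2.2% of all genes. Acot13 was lower in fed S662D mice (-0.29, adjusted p 0.012), where 1.57% of all genes were lower, a call that ended without S662D fed replicate 2, 3 or 4 (0.0704, 0.0622 and 0.107). No S662D against control call named in these lists passed without the digit libraries, with the digit as a term or against control replicates 6 to 10 alone.

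In the labelled knockout against S662D, where 2.61% of all genes were higher and 4.72% lower, Lpcat4 (log2 -0.28) and Agpat1 were the 2 of 18 acylation genes called, both lower. Slc27a4 and Mlycd, which degrades malonyl-CoA, were 2 of 10 synthetases and thioesterases, also lower. Cers1 (-0.24) and Fa2h were lower and Cers4 higher, 3 of 12. Of the genes that supply citrate, acetyl-CoA and NADPH (10 listed), Idh2 was higher (0.27, adjusted p 0.0117), a call that ended without S662D fasted replicate 4 (0.0722). The calls of Lpcat4 and Cers1 held on leaving out each library in turn, and those of Agpat1, Slc27a4, Mlycd, Fa2h and Cers4 each ended on leaving out any 1 of 3 to 7 libraries. None passed without the digit libraries.

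The mitochondrial fatty acid synthesis and lipoylation genes (9 listed, 8 tested), which make the octanoate for lipoic acid, gave 0 calls in all 7 comparisons by edgeR's quasi-likelihood test and 0 by DESeq2. In fed S662D mice against fed controls all 8 had log2 values below zero, between -0.34 and -0.09, and 5 had an unadjusted p below 0.05. Of the 18063 genes tested, 52.1% lay below zero there and 3798 had an unadjusted p below 0.05. In the other comparisons 0 to 2 of the 8 did, and 1097 to 4051 of all genes. The values of the 8 genes are not given here by the additional digit.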

How the data were processed

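The deposited files are gene tables of raw read counts, 1 per library. Per the file headers the authors counted fragments with featureCounts 2.0.1 on the GENCODE vM12 annotation, by gene name, without strand, and with every alignment of multi-mapping reads counted. Per the submitters' processing notes, reads were aligned with STAR 2.7.10b to mm10 (GRCm38). Per the labels' protocols, reads were paired and 150 bases long.

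Counts of all 35 libraries were fitted together by group with edgeR 4.0.16 (R 4.3.3), with TMM scaling and filterByExpr (minimum count 10). Quasi-likelihood tests were adjusted by Benjamini-Hochberg over 18063 genes, and a gene was called at an adjusted p below 0.05. CPM is the count per 1000000 of the TMM-scaled library size, and a standard error is the log2 fold change divided by the root of F. The common coefficient of biological variation was 0.09. The lowest total of 17959586 counts limits precision for low genes. Alternatives were DESeq2 1.42.0, no scaling, no filter, only the compared groups, a replicate term, each set of libraries, a digit term, an oligodendrocyte term and each library left out. The test was also run on simulated counts, with results not given here. Those counts held no differences between sets of libraries, so they cannot show how the test behaves where such sets differ. No 2 libraries of a group held the same values.

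Every member called was named with its values, and at most 3 called genes of each companion list per comparison, by adjusted p. The members and lists were chosen with earlier results of these data known.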

Additional observations from a re-analysis of the deposited data

Results flagged for a closer look

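In 4 of 155 groups looked at (a member in the libraries of 1 group), the highest or lowest library stood apart from the others by Dixon's criterion, which chance meets in about 1 in 20 groups. Acss2 was at 68.4 CPM in fed control replicate 3, where the next library was at 60.8 and the lowest at 53.8 CPM. Elovl4 was at 64.3 CPM in fasted control replicate 5, with the next at 56.7 and the lowest at 49.3 CPM. Scd3 was at 10.8 CPM in fasted S662D replicate 2, with the next at 8.89 and the lowest at 8.52 CPM. Tecr was at 377 CPM in labelled Per2 knockout replicate 4, where the next library was at 415 and the highest at 426 CPM.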

How the results depend on the processing

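No called value of a member, or of a companion gene named here, changed sign under any alternative. The cell type markers were not followed through the alternatives. The members' median log2 fold change, always near zero, moved by -0.05 to 0.03 over 182 alternatives, changed sign in 22 and stayed within 0.027, the SD of the members' median deviation between libraries of a group, in 168. The counts of members called moved. The cause was not tested. In brackets is the share of all genes called in the same setting, for DESeq2 and without the filter over all genes with a count. On fasting in controls 3 members were called (3.88%), 5 with control replicates 1 to 5 (7.4%), 0 with replicates 6 to 10 (1.71%), and 2 to 4 on leaving out a library (3.17 to 4.35%). On fasting in S662D 2 were called (2.64%), 1 without the filter (1.02%) and 0 with only the compared groups (1.6%). It was 0 without the digit libraries (0.0373%), 4 with the oligodendrocyte term (3.17%), and 0 to 2 on leaving out a library (1.71 to 3.21%). The interaction called 0 (0%), 1 with control replicates 1 to 5 (2.73%), and 0 to 0 on leaving out a library. For S662D against control in fed mice 1 was called (4.69%), 2 without scaling (4.58%), 2 without the filter (1.67%) and 2 with only the compared groups (5.86%). It was 6 and 0 with control replicates 1 to 5 (9.79%) and 6 to 10 (0.185%), and 0 without (0.0854%) and 8 with (16.9%) the digit libraries alone. The digit term gave 0 (0.127%), DESeq2 5 (3.94%), and leaving out a library 1 to 7 (0.362 to 9.15%). In fasted mice 4 were called (5.57%), 1 without scaling (5.66%) and 1 with only the compared groups (1.67%). It was 2 and 1 with control replicates 1 to 5 (9.45%) and 6 to 10 (0.269%), and 0 without (0.112%) and 7 with (17.1%) the digit libraries alone. The digit term gave 0 (0.111%) and leaving out a library 1 to 7. It was 7 without S662D fasted replicate 1 (9.89%), 1 without replicate 2 (1.21%) or 4 (0.845%), and 2 without replicate 3 (1.62%). The labelled knockout against control called 0 (0.0277%), 2 with control replicates 6 to 10 (0.556%), and 0 to 0 on leaving out a library. Against S662D it called 3 (7.34%), 5 without scaling (7.03%), and 0 without (0.139%) and 7 with (16.2%) the digit libraries alone. The digit term gave 0 (0.233%), DESeq2 5 (4.79%), and leaving out a library 2 to 4 (2.86 to 10.2%).

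With the replicate number as a block, 1 member was called on fasting in S662D (2.42% of all genes tested) and 3 for S662D against control in fed mice (6.22%). The block called 2 in fasted mice (6.05%) and 4 for the labelled knockout against S662D (6.91%). It dropped Fads2 on fasting in S662D and Tecr and Scd2 in fasted S662D against control, and added Fads6 (log2 0.17) and Hsd17b12 (-0.17) in fed S662D against control and Hsd17b12 (0.14) in the labelled knockout against S662D. The labels link these samples only by a number, and in no pair of groups did every same-numbered pair correlate above 0.1. In the S662D groups the number goes with the additional digit (replicates 2, 3 and 4), so there the block and the digit are not independent. The correlations ran from -0.19 to 0.06 between fed and fasted controls, -0.11 to 0.16 between fed and fasted S662D mice, -0.05 to 0.24 between fed S662D and control (3 of 5 above 0.1), -0.02 to 0.10 between fasted S662D and control, and -0.14 to 0.05 for the labelled knockout, and in 4 of 35 pairs a library correlated best with its own number. Across all genes, S662D against control called 16 genes in fed and 21 in fasted mice without the digit libraries, and 3106 and 3148 with them alone. Scd4 and Elovl3, with few counts, were removed by the filter on low counts; without the filter edgeR called neither in any comparison.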
